A study of Mus musculus with 6 samples.

Results

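Matn1, D630023F18Rik, Gm5129 and Synj1 are 4 of the 23462 mouse genes that the array names, and 7 of its 56605 probes report them. They were chosen because 1 probe of each was higher in microglia overexpressing PGC-1α, with an adjusted p-value under the threshold of the comparison, so their levels in that comparison are a description and carry no test. Matn1 encodes matrilin-1, a matrix protein of cartilage that links collagen fibrils and proteoglycans. D630023F18Rik is a protein-coding gene that still bears its cDNA name, and Gm5129 is annotated as a long noncoding RNA. Synj1 encodes synaptojanin-1, a phosphatase that removes phosphate groups from membrane phosphoinositides.

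Phosphoinositides mark the membrane from which clathrin-coated vesicles bud, and synaptojanin-1 acts after budding, when the coat is shed and the vesicle is reused. It is best known at nerve terminals, where it works with endophilin, dynamin, amphiphysin and auxilin. Matrilins are secreted proteins that assemble with collagens, aggrecan and cartilage oligomeric matrix protein, and Matn1 is used as a marker of chondrocytes.

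Microglia were isolated from the brains of male C57BL/6 mice of 10 weeks by magnetic selection for the surface receptor P2RY12. The PGC-1αf/f controls (n = 3) carried a loxP-controlled PGC-1α allele linked to eGFP and no Cre. The mPGC-1α littermates (n = 3) carried the same allele together with a tamoxifen-inducible Cre recombinase inserted into the Cx3cr1 locus, a gene active in microglia and in other mononuclear phagocytes. Per the study's methods, tamoxifen was given before the experiments. For its imaging of microglial shape, the paper describes taking the brains of both genotypes after tamoxifen induction. Whether the PGC-1αf/f mice of these arrays received it was not stated in the sources used here. The labels do not say whether the 3 samples of a group were separate animals, so p-values measure only the spread between these samples.

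Each array gave a signal in intensity units per spot and a flag for spots well above background. The 75th percentile of the signal lay between 1012 and 2138 units, between 27025 and 30272 of 59305 spots were well above background, and 0 were saturated. Levels below are log2 signals from which this percentile, as log2, was subtracted. The levels of different probes cannot be ranked against each other. All PGC-1αf/f arrays lay in row 1 of the slide and all mPGC-1α arrays in row 2, so slide row and group cannot be told apart, while columns 1 and 2 held an array of each group. A pair of arrays stood apart. The correlation of PGC-1αf/f replicate 3 with the others averaged 0.928, against 0.962 or more for each of the rest, and its blood leukocyte markers summed to 2434% of the percentile where the other 5 arrays gave 11810% to 16990%. The summed level of 4 Y-linked genes was 6.8% on mPGC-1α replicate 3, against 118.6% to 287.5% elsewhere, although the sample is labelled male. Xist, the RNA of the inactive X chromosome, was -1.63 on that array, -2.78 on PGC-1αf/f replicate 2 and -2.40 on mPGC-1α replicate 2, and not well above background on the other 3. On PGC-1αf/f replicate 2 and mPGC-1α replicate 2 the Y-linked sums were 120.1% and 118.6%, against 192.1% to 287.5% on the arrays without Xist. The sex signal was thus not odd on mPGC-1α replicate 3 alone. Ppargc1a, which encodes PGC-1α, was 0.19, -0.44 and -1.21 in PGC-1αf/f and 0.57, 0.28 and 0.08 in mPGC-1α microglia. The groups overlapped, and the difference of 0.80 (SE 0.35) had a limma adjusted p of 0.306. The other Ppargc1a probe differed by 0.59 (SE 0.38, adjusted p 0.446). It was not analysed here whether these probes read the transgene.

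The sequence ahead of the transcription start is shown for 3 of the genes, because these genes were chosen for moving the same way. Each run covers 250 bases before to 50 bases after a start site in RefSeq (assembly GRCm38.p6), 5′ to 3′ on the gene's strand. The windows lie at chr4:130944135-130944434 (plus strand) for Matn1, chr1:65123165-65123464 (minus strand) for D630023F18Rik and chr16:91011046-91011345 (minus strand) for Synj1. Capitals mark matches to any of 5 motifs, searched on both strands: the element of the estrogen-related receptors, which are partners of PGC-1α (TNAAGGTCA), the AP-1 site (TGANTCA), the cyclic AMP response element (TGACGTCA), the GC box (GGGCGG) and the TATA box (TATAAA). RefSeq promoters matched 3 of the 4 genes, and Gm5129 is named only.
Matn1: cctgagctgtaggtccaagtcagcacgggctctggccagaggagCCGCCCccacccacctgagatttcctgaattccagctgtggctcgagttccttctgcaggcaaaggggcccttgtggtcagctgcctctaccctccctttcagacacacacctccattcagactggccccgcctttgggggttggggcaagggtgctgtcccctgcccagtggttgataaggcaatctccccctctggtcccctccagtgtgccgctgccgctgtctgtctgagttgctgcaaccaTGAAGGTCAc
D630023F18Rik: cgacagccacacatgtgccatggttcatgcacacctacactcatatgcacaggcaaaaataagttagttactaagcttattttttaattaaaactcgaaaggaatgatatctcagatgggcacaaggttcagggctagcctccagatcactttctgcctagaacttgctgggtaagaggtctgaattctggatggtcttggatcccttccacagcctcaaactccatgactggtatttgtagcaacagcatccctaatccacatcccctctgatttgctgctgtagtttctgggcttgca
Synj1: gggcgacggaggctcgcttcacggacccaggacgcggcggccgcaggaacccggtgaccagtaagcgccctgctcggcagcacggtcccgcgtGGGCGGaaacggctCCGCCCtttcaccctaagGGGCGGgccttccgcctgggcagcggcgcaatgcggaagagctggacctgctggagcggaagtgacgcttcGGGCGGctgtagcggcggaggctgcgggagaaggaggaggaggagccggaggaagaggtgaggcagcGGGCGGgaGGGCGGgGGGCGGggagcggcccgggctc
The Matn1 window held 1 match to the estrogen-related receptor element, starting 40 bases after the start site, and 1 GC box. The element's letters occurred in 1.28% of 32851 promoters of this length and the GC box in 35.7%. The D630023F18Rik window held no match. The Synj1 window held 7 GC boxes, none overlapping another. A second Synj1 start, whose window at chr16:91011259-91011558 overlaps the one shown, held none. The 35.7% is for windows with any GC box, and how many held 7 was not counted. Which start serves the transcript of either Synj1 probe was not analysed here. The 3 genes also differed in base composition. The Synj1 window had a GC content of 74% and 36 CpG dinucleotides, the Matn1 window 61.3% and 6, and the D630023F18Rik window 45% and 2, where the median promoter had 52.7% and 7. A match to these letters is a description of the window and not a binding site.

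Matn1 and D630023F18Rik went from the background of the array to a clear signal. The Matn1 probe (A_55_P2171221) gave 29.2, 61.2 and 51.5 intensity units in PGC-1αf/f microglia, well above background on 0 of 3 arrays. In mPGC-1α microglia it gave 464, 1478 and 1680 units, well above background on all of them. As levels these were -5.11, -4.66 and -5.38 against -1.46, -0.17 and 0.20. The PGC-1αf/f values are readings in the background, so the lowest mPGC-1α array, replicate 1, is given only a bound: it lay at least 1.69 above the highest floor of a PGC-1αf/f array. Because the control signal is only a bound, the higher level is given as at least 9.32-fold. That bound sets the mPGC-1α mean against, per PGC-1αf/f array, the higher of the probe's own signal and the lowest signal well above background, which was 113 to 119 units on these arrays. The group means were -5.05 ± 0.36 and -0.48 ± 0.87 (SD, n = 3 each), where the first is the mean of background readings. In bulk RNA of sorted cells, more cells with a transcript and more transcript per cell cannot be told apart.

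D630023F18Rik was read by a pair of probes designed on different curated transcripts. The probe A_55_P2501030 (NM_001285882) gave 30.4, 39.2 and 42.2 units in PGC-1αf/f and 579, 1106 and 1852 units in mPGC-1α microglia. It too was well above background on every mPGC-1α array and on no PGC-1αf/f array, and was at least 9.42-fold higher. The group means were -5.34 ± 0.31, again of background readings, and -0.46 ± 0.75 (SD, n = 3 each). The probe A_55_P1952334 (NM_175293) gave 26.4, 26.4 and 25.1 units in PGC-1αf/f microglia, which is no more than the error the scanner software gave for them. In mPGC-1α microglia it gave 89.5, 201 and 229 units and was well above background on replicates 2 and 3 only. It was therefore not tested, and no fold is given. For the second probe, as for the first, every mPGC-1α array read above every PGC-1αf/f array. In PGC-1αf/f microglia neither probe was above background. Of all 56605 probes, 131 (0.231%) shared the pattern of being well above background on every mPGC-1α array and on no PGC-1αf/f array, and 32 (0.0565%) had the reverse one.

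Gm5129 and Synj1 had a measurable control level. The Gm5129 probe A_55_P2140121 gave 208, 316 and 439 units in PGC-1αf/f and 729, 1116 and 844 units in mPGC-1α microglia. After scaling, the PGC-1αf/f levels were nearly identical, at -2.28, -2.30 and -2.28, while the mPGC-1α levels were -0.81, -0.58 and -0.80. The difference was 1.56 (SE 0.13), or 2.95-fold. The probe A_55_P2166664, designed on the same transcript, gave 181, 301 and 422 against 441, 748 and 598 units. Its levels averaged -2.40 ± 0.08 and -1.33 ± 0.19 (SD, n = 3 each), a difference of 1.07 (SE 0.15), or 2.10-fold. For both probes all mPGC-1α arrays lay above all PGC-1αf/f arrays, and both were well above background on all 6 arrays.

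The Synj1 probes differed from each other. A_55_P2847069, designed on a predicted transcript (XM_011246087), gave 87.9, 167 and 192 units in PGC-1αf/f and 316, 578 and 499 units in mPGC-1α microglia. It was not well above background on PGC-1αf/f replicate 1 and was so on the other 5 arrays. The levels averaged -3.41 ± 0.17 and -1.70 ± 0.27 (SD, n = 3 each), a difference of 1.71 (SE 0.18), or 3.27-fold. A_52_P34012, designed on a curated transcript (NM_001045515), gave 2426, 3526 and 4922 units in PGC-1αf/f and 2212, 3932 and 2841 units in mPGC-1α microglia. Its spot on mPGC-1α replicate 2 was flagged as an outlier and left out of the fit. The remaining levels were 1.26, 1.18 and 1.20 against 0.79 and 0.95, a difference of -0.34 (SE 0.15), with the mPGC-1α levels below. With the flagged spot, at 1.24, the groups overlapped. The value for which Synj1 was chosen thus rests on the probe of the predicted transcript, and the probe of the curated one had a lower mPGC-1α mean. RefSeq lists 2 curated and 32 predicted Synj1 transcripts.

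**Figure D1:**
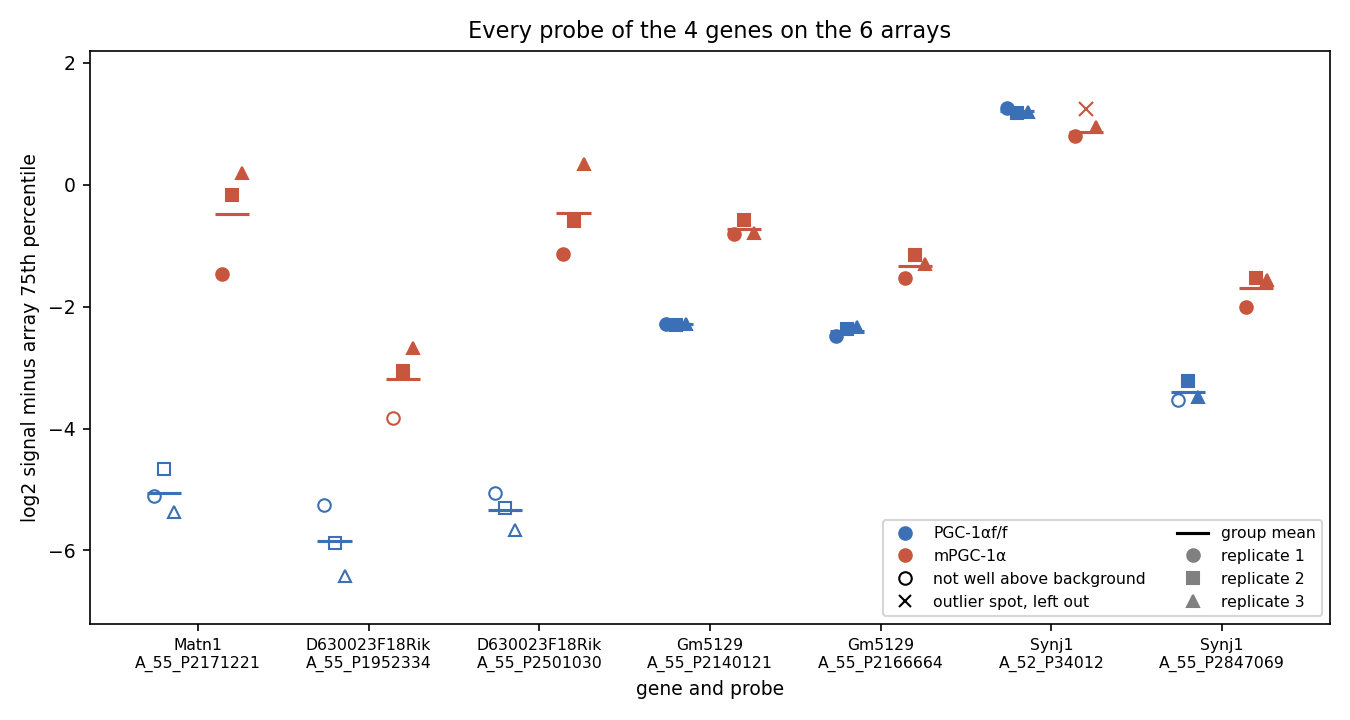
Scaled log2 signal (vertical axis) for the 7 probes of the 4 genes (horizontal axis), with 3 PGC-1αf/f arrays in blue, 3 mPGC-1α arrays in red, marker shapes for replicates, open symbols for spots not well above background, a cross for the outlier spot and bars for group means. In Matn1 and both D630023F18Rik probes all PGC-1αf/f symbols are open, and of the 7 probes only A_52_P34012 of Synj1 has a lower mPGC-1α mean, 0.87 against 1.22.

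The comparison that chose the genes was fitted with limma over 25257 probes. At a Benjamini-Hochberg adjusted p of 0.05, 20 probes were past the threshold (0.0792%), 18 higher (0.0713%) and 2 lower (0.00792%) in mPGC-1α microglia. The values used for the choice were 0.0134 for D630023F18Rik (A_55_P2501030), 0.0169 for Gm5129 (A_55_P2140121), 0.0305 for Matn1 and 0.0440 for Synj1 (A_55_P2847069). The second Gm5129 probe had 0.0709 and the curated Synj1 probe 0.315. Just inside the threshold lay Madd with 0.0477 and a difference of -1.28, and just outside it lay A_51_P172650 and A_66_P130105, both unnamed here, with 0.0574 each and differences of 1.91 and 1.70. For 6 of the 7 probes, the untested D630023F18Rik probe among them, every mPGC-1α array lay above every PGC-1αf/f array. Among the 22997 tested probes measured on all arrays 11.4% did so, and for 13.7% every mPGC-1α array lay below.

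The groups did not overlap for these probes, so slide columns 1 and 2 and the arrays that stood apart could change the size of a difference but not its direction. Log2 differences are given for the probe that chose each gene, and for Matn1 and D630023F18Rik as bounds against the floor of the PGC-1αf/f array. In column 1 the mPGC-1α array was higher by at least 1.69 for Matn1, at least 2.01 for D630023F18Rik, 1.47 for Gm5129 and 1.51 for Synj1, whose PGC-1αf/f spot there was not well above background. In column 2 the values in the same order were at least 3.61, at least 3.19, 1.72 and 1.69. Without PGC-1αf/f replicate 3 they were at least 2.99, at least 3.00, 1.56 and 1.67. Without mPGC-1α replicate 3 they were at least 2.88, at least 2.83, 1.59 and 1.64, and limma placed 0 probes of the array past the adjusted threshold, with 1325 higher and 2010 lower by an unadjusted p of 0.05. Leaving out both of these arrays gave at least 2.65, at least 2.60, 1.60 and 1.60.

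A factor that scales a whole array cancels in the ratio between the probes of a gene, of which only the shift between groups can be read. For Synj1 the log2 ratio of the probe of the curated transcript to that of the predicted one was 4.79, 4.40 and 4.68 in PGC-1αf/f microglia, the first value with a spot not well above background. In mPGC-1α microglia it was 2.81, 2.77 and 2.51, where the middle value uses the outlier spot. The groups did not overlap. The ratio contains the probe for which Synj1 was chosen, and which of the Synj1 transcripts each probe reads was not analysed here. For Gm5129 the log2 ratio of the first probe to the second was 0.20, 0.07 and 0.05 in PGC-1αf/f and 0.72, 0.58 and 0.50 in mPGC-1α microglia. These groups did not overlap either, and this ratio too contains the probe for which the gene was chosen.

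**Figure D2:**
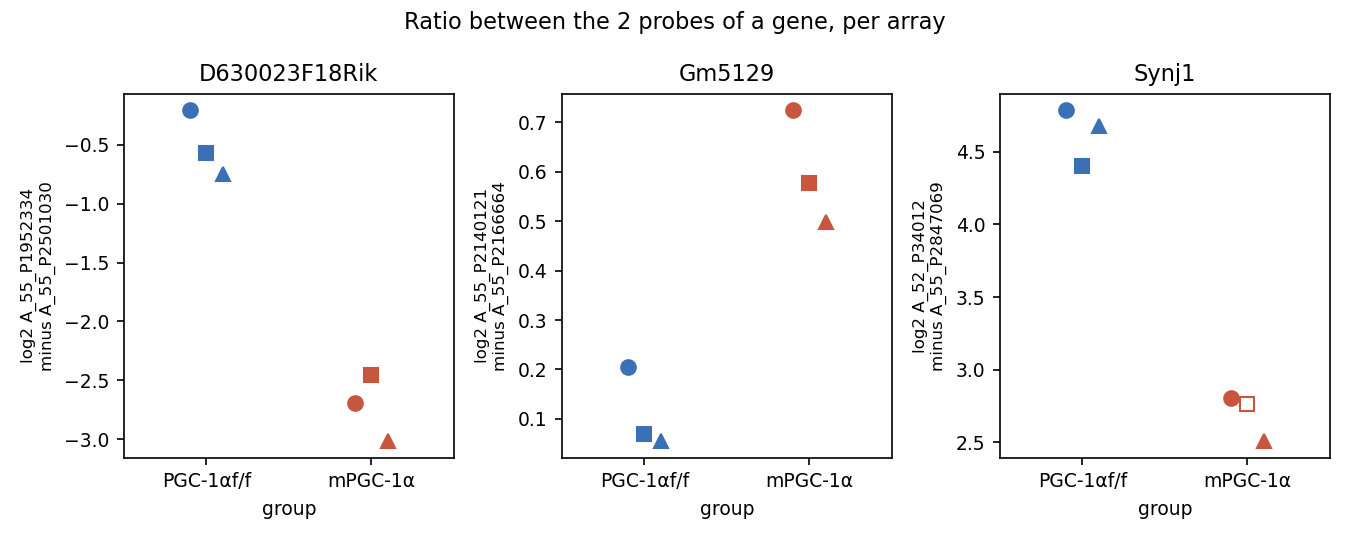
Log2 ratio between the probes of D630023F18Rik, Gm5129 and Synj1 on each array (vertical axes, a separate scale per panel) by group (horizontal axis), with circles, squares and triangles for replicates 1, 2 and 3 and an open square where the outlier spot entered. The Synj1 ratio is 4.40 to 4.79 in PGC-1αf/f and 2.51 to 2.81 in mPGC-1α microglia, and all PGC-1αf/f points of D630023F18Rik, its mPGC-1α replicate 1 and PGC-1αf/f replicate 1 of Synj1 use a spot not well above background.

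To see how often probes of a gene part in this way, the log2 differences of both probes were compared for the 3280 genes with exactly 2 tested probes. The median gap was 0.153. Synj1, with its outlier spot left out, had a gap of 2.05, which no other gene of the 3280 reached (0.0305% including itself). The gap of Gm5129 was 0.490, and 8.23% of the genes had one at least as wide. Both genes had been chosen on one of their probes and the others had not, so these ranks are a description.

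**Figure D3:**
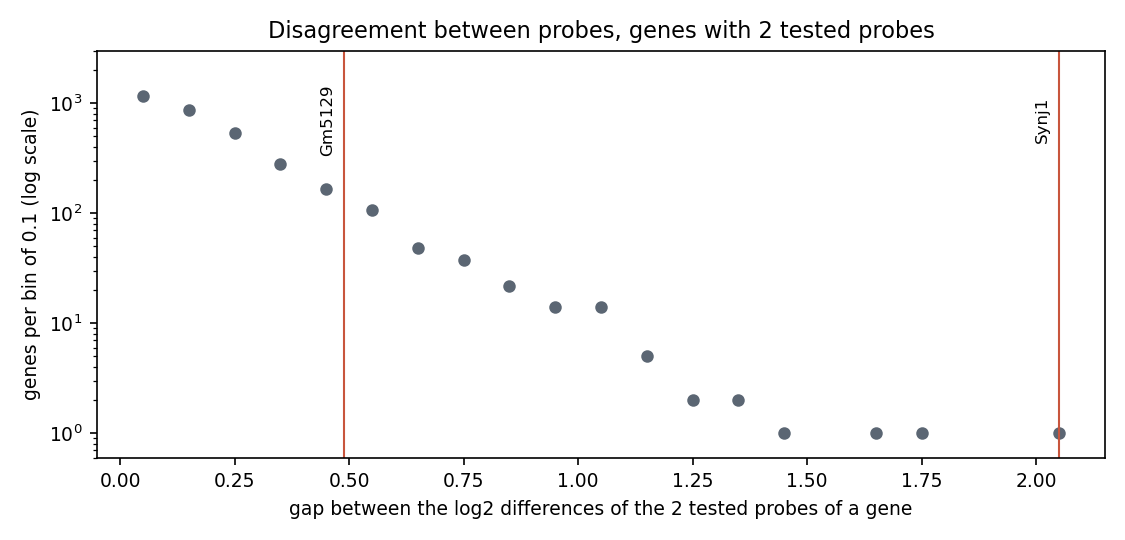
Number of genes (vertical axis, log scale) by the absolute gap between the log2 mPGC-1α minus PGC-1αf/f differences of their probes (horizontal axis, bins of 0.1) for 3280 genes with exactly 2 tested probes, with vertical lines at Gm5129 and Synj1. The Synj1 line at 2.05 stands at the right end of the points, and Gm5129 at 0.490 lies among many other genes.

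The relatives of the chosen genes were examined next, beside a median difference of -0.0026 over all tested probes. Matn2, a matrilin of wider tissue distribution than Matn1, was 0.69, 0.22 and -0.06 in PGC-1αf/f and 1.07, 0.93 and 0.79 in mPGC-1α microglia. Its groups did not overlap, but the difference of 0.65 (SE 0.21) had a limma adjusted p of 0.232. Matn4 differed by 0.20 (SE 0.20, adjusted p 0.632), and no array had Matn3 well above background. Synj2, the paralogue of Synj1, differed by 0.20 (SE 0.17, adjusted p 0.560) on its brightest probe and by -0.32 (SE 0.20, adjusted p 0.438) on another, and 3 further Synj2 probes were too dim to be tested.

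Genes of cartilage matrix mostly stayed in the background in both groups. Of 22 listed matrilin and cartilage genes 14 were well above background on no array, among them Col2a1 and Acan, which encode the main collagen and proteoglycan of cartilage, as well as the linked collagen chains Col9a1, Col9a2, Col10a1, Col11a1 and Col11a2. Of the 7 tested 0 were past the adjusted threshold, 2 were higher by the unadjusted p of 0.05, past which lay 7.53% of all probes upward and 9.21% downward, 0 were lower, and the median difference was 0.20, which became 0.41 when PGC-1αf/f replicate 1 was left out and 0.12 when replicate 2 of that group was. The widest differences were 1.03 (SE 0.33, adjusted p 0.229) for Col9a3, a chain of collagen IX, 0.65 for Matn2, 0.35 for Sox9, a transcription factor of chondrocytes and glia, and -0.23 for Comp, cartilage oligomeric matrix protein. The 7 tested genes, with Matn4, Snorc and Sox5 besides these, were well above background on all 6 arrays.

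The enzymes that share substrates with synaptojanin-1 had differences on either side of 0. Of 12 listed phosphoinositide 5-phosphatases and Sac phosphatases 11 were tested and 0 were past the adjusted threshold. By the unadjusted p, 0 were higher and 1 was lower, where 7.53% of all probes were higher and 9.21% lower. The median difference was 0.01, which became -0.10 when PGC-1αf/f replicate 1 was left out. The widest differences were 0.62 (SE 0.35, adjusted p 0.393) for Inpp5j, -0.41 (SE 0.15, adjusted p 0.268) for Sacm1l, which acts on phosphatidylinositol 4-phosphate, -0.40 for Inpp5e, the 5-phosphatase of primary cilia, and -0.27 for Inppl1. Inpp5d, which encodes SHIP1, the 5-phosphatase of blood and myeloid cells, differed by -0.11 (SE 0.13).

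The clathrin machinery with which synaptojanin-1 works was read in the same way. Of 39 listed genes 32 were tested and 0 were past the adjusted threshold. By the unadjusted p 2 were higher and 1 was lower, where 7.53% of all probes were higher and 9.21% lower. The differences lay above 0 in 16 and below 0 in 16, with a median of -0.006. The widest were -0.55 (SE 0.21, adjusted p 0.272) for Fcho2, an early factor of coated pits, 0.55 for Pip5k1b, a kinase that makes the lipid synaptojanin-1 degrades, 0.53 for Dnm1, the neuronal dynamin, and 0.51 (SE 0.20, adjusted p 0.273) for Dab2, a cargo adaptor. The neuronal partners Sh3gl2, which encodes endophilin A1, Dnm3 and Dnajc6, which encodes auxilin, were well above background on no array.

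Neurons express Synj1 strongly, so markers of other cell types were read beside it. Of 16 neuronal markers 12 were tested, with 10 differences above 0, a median of 0.24 and 0 past the adjusted threshold. Grin1, the widest of these at 1.19, passed the filter through the mPGC-1α arrays only. Without PGC-1αf/f replicate 3, 6 of the 12 lay above 0 and the median of the neuronal markers was 0.0021. Their summed level was 1748% to 2106% of the percentile in PGC-1αf/f and 1981% to 2289% in mPGC-1α microglia, and neither Slc17a7 nor Nefm was above background. Of 13 oligodendrocyte markers 11 were tested and 6 were lower by the unadjusted p, against 9.21% of all probes, and in 7 the mPGC-1α arrays all lay below, against 13.7%, with a median of -0.61 and sums of 1852% to 2406% against 1311% to 1527%. Mog and Opalin, 2 of these 6 and of these 7, passed the filter through the PGC-1αf/f arrays only. Without both arrays that stood apart that median was -0.37. Of 19 blood leukocyte markers 15 were tested, 14 differences lay above 0 and the median was 1.08, with sums of 2434% to 13990% against 13710% to 16990%. Without PGC-1αf/f replicate 3 that median was 0.35, and without mPGC-1α replicate 3 as well it was 0.19. Of 12 endothelial and mural markers 5 were tested, all above 0, with a median of 0.78. Acta2, the widest of these at 1.14, passed the filter through the mPGC-1α arrays only. Without PGC-1αf/f replicate 3 the median of the 5 was 0.06, with 4 above 0, and without mPGC-1α replicate 3 as well it was -0.10. The 8 astrocyte markers tested had a median of 0.03, which was -0.09 without PGC-1αf/f replicate 3 and 0.14 without mPGC-1α replicate 3. The 12 microglial markers tested had a median of -0.04, with 7 below 0. Without PGC-1αf/f replicate 3 that median was -0.10 with 11 below 0, and without both arrays it was -0.16 with 12 below 0. The microglial sums were 22600% to 28830% against 22560% to 26510%. All these lists had 0 genes past the adjusted threshold. Besides the 6 oligodendrocyte genes, 1 marker passed the unadjusted p, Cx3cr1, the locus that carries the Cre, with a difference of -0.51 (SE 0.14, adjusted p 0.194). The share of these cell types in the levels of the 4 genes was not tested.

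The genes next to each of the 4 on its chromosome were not chosen for their values. Up to 3 neighbours on each side were taken by RefSeq order, 23 in all, of which 14 were tested and 0 were past the adjusted threshold. Their differences ran from -0.23 to 0.91, 8 above and 6 below 0, with a median of 0.04. That median was -0.08 without mPGC-1α replicate 3 and 0.09 without mPGC-1α replicate 2. Next to Matn1 on chromosome 4, Laptm5, a lysosomal protein of blood cells, differed by 0.04 (SE 0.21), Sdc3 by 0.27 and Ptpru by 0.83 (SE 0.43, adjusted p 0.369), and LOC108168713 and A930031H19Rik were too dim to be tested. Next to D630023F18Rik on chromosome 1, Idh1, cytosolic isocitrate dehydrogenase, differed by 0.24 and Pikfyve, a phosphoinositide kinase, by -0.0043. The lens crystallin gene Cryga differed by 0.04, and Crygb, Crygc and Pth2r were too dim to be tested.

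Gm5129 partly overlaps Dnajb6, a heat shock cochaperone gene on chromosome 5, and which part of the locus each probe reads was not analysed here. Dnajb6 differed by -0.17 (SE 0.17, adjusted p 0.618), where both Gm5129 probes had positive differences. Il6 differed by -0.23 and Tyms, thymidylate synthase, by 0.10. Mnx1 and Gm6083 were too dim to be tested, and Ube3c lacked a value on an array. Next to Synj1 on chromosome 16, Paxbp1 differed by -0.20, Cfap298 by 0.33, Urb1 by -0.10 and Eva1c by -0.18. The noncoding gene 4930404I05Rik, which overlaps Synj1, was in the background on every array. The widest difference of the 14 tested neighbours was that of 4932438H23Rik beside Synj1, 0.91 (SE 0.29) with a limma adjusted p of 0.229. It was also the only neighbour past an unadjusted p of 0.05, past which lay 7.53% of all tested probes upward and 9.21% downward.

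**Figure D4:**
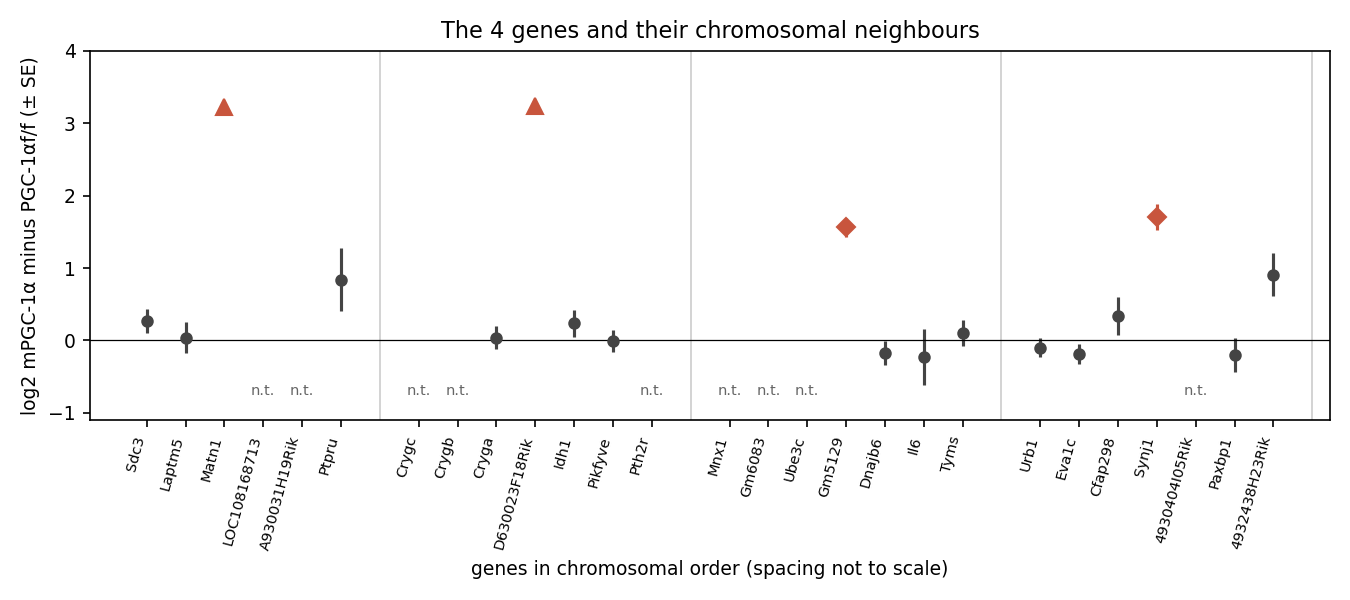
Log2 difference between mPGC-1α and PGC-1αf/f means with its SE (vertical axis) for the 4 genes (red, the probe that chose each; triangles are lower bounds, diamonds fitted values) and their 23 neighbours in chromosomal order (grey circles, n.t. for not tested; horizontal axis, spacing not to scale). The 4 genes, chosen for their differences, lie at 3.22 and 3.24 as bounds and at 1.56 and 1.71, and the 14 tested neighbours between -0.23 and 0.91.

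Finally, the arrays were searched for genes with the most similar profile. Each profile over the 6 arrays was centred on its own mean, and likeness was the root-mean-square difference in log2 units from the chosen probe, among 16272 tested probes with a name and a value on all arrays. The PGC-1αf/f readings of Matn1, D630023F18Rik, the Cdkn1a probe and Ccn1 lay in the background, so their distances rest in part on background readings. Matn1 and D630023F18Rik were each other's nearest, at 0.338. Next for both came Cdkn1a, the cell cycle inhibitor p21, at 0.558 and 0.627, and Fosb, an AP-1 subunit, at 0.764 and 0.859. Gm5129 and the Synj1 probe A_55_P2847069 were each other's nearest, at 0.180. After Synj1, Gm5129 was nearest to Slfn5, a Schlafen family gene, at 0.213 and Hspa1a, an inducible heat shock protein, at 0.232. After Gm5129, Synj1 was nearest to Oas2, an interferon-induced oligoadenylate synthetase, at 0.231 and Ccn1, a matricellular protein, at 0.258. Distances from either of the first 2 genes to either of the last 2 were 1.48 to 1.73. The profiles hold 6 arrays and are dominated by the difference between the groups, so that genes of like fold change come out as alike.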

How the data were processed

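Total RNA of P2RY12-selected microglia was amplified, labelled with Cy5 and hybridized by the authors to 1-colour Agilent mouse arrays, 3 per group. The deposited scanner files hold intensity values per spot from Feature Extraction 11.5.1.1, background-subtracted and detrended within the array, with a flag for spots well above background and others for outliers. The deposited series matrix holds these intensity values, not normalized across arrays. Per the methods, normalization was done in GeneSpring, and no test per gene is given for the arrays. Groups and replicate numbers came from the labels.

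Control and outlier spots were left out, the log2 of the array's 75th percentile was subtracted from log2 intensity, and values of a probe's spots were averaged. The background flag had to hold for at least 0.5 of the spots of a probe. Of 56605 probes, 25333 met it on every array of a group and were tested, and 25257 gave a p. They were fitted with limma 3.58.1 in R 4.3.3 with data.table (version 1.17.8), two-sided, with Benjamini-Hochberg adjustment at 0.05. The code was tested on simulated data. The arrays' number limits the precision.

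Transcript accessions named 33767 probes for 23462 genes through RefSeq (GRCm38.p6), which served for names, gene order and promoters, since the array grid gives mm9. Named were all probes of the 4 genes, Ppargc1a, 3 genes of nearest profile per gene (by its brightest probe with values on all arrays), neighbours (1 item is not reported here), genes of each list past the threshold and the 4 of widest difference. Genes named beyond this rule, such as Inpp5d and the dim genes, were chosen after their values were seen. The 4 genes and the lists were chosen with earlier results of these data known. A gene of a list was read by its tested probe of highest signal. Plots were made in Python 3.11.15 using numpy 2.4.6, pandas 2.3.3 and matplotlib 3.10.9.

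The settings varied were the scaling (quantile, median shift, normexp with an offset of 50, the deposited values), the filter, the replicate number as a block, the slide column as a random block, array weights, and each array left out in turn. Leaving out both arrays that stood apart was added after the data had been seen.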

Additional observations from a re-analysis of the deposited data

How the results depend on the processing

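None of the differences of the 4 chosen probes changed direction under the 15 or 16 alternatives that gave a value. Their groups did not overlap, so leaving out arrays could not reverse them. The other Synj1 probe, A_52_P34012, stayed below 0 under all 16. A median shift gave 1.43 for Gm5129, and it moved the median of all tested probes to -0.14. Normexp with quantile normalization gave fitted values of 3.23 for Matn1, 3.24 for D630023F18Rik, 1.28 for Gm5129 and 1.30 for Synj1. Requiring all 6 arrays above background left Matn1, D630023F18Rik and the Synj1 probe untested. For Matn1 and D630023F18Rik these are values against background readings and not sizes. Leaving out each array gave 4.23 to 5.06 for Matn1, 4.48 to 5.22 for D630023F18Rik, 1.48 to 1.60 for Gm5129 and 1.62 to 1.87 for Synj1. The count of probes past the limma threshold, 20, depended far more on the setting. It was 11 with quantile normalization, 11 with a median shift, 11 with normexp, 456 with the deposited table, 9 without a filter, 4 with all 6 arrays required, 754 with array weights, 138 with slide column as random block and 3 without both arrays that stood apart. Leaving out each array gave 0 to 25. It was 0 without mPGC-1α replicate 3 (unadjusted p under 0.05 in 1325 upward and 2010 downward), 1 without mPGC-1α replicate 2, 2 without PGC-1αf/f replicate 2 and 11 without mPGC-1α replicate 1. All 4 chosen probes were past the threshold with the deposited table, array weights and the random block. Synj1 alone was lost with normexp and without PGC-1αf/f replicate 3, Matn1 and Synj1 with quantile normalization, and Gm5129 and Synj1 with a median shift, without a filter and without mPGC-1α replicate 1. D630023F18Rik alone was past it without PGC-1αf/f replicate 1 or without both arrays, Gm5129 alone with all 6 arrays required, and none without PGC-1αf/f replicate 2, mPGC-1α replicate 2 or mPGC-1α replicate 3. With the replicate number as a block the count was 0 (unadjusted p under 0.05 in 2388 upward and 2293 downward). Samples of the same number correlated in their deviations by 0.139, 0.127 and 0.0187, so the numbers were not taken as pairs. Samples numbered 1 or 2 shared a slide column across the groups, and those numbered 3 did not. Number and column can therefore not be told apart for replicates 1 and 2. With slide column as random block the correlation within a column was estimated at 0.349, which the main fit did not include. The 3 gene lists and the neighbours had 0 genes past the threshold under all 16 alternatives, with lowest adjusted p-values of 0.0617 for the matrilin list, 0.0694 for the neighbours, 0.0961 for the clathrin list and 0.183 for the phosphatases. The causes of these shifts were not tested. Signals near background limit Matn1 and D630023F18Rik to bounds, and 3 arrays per group limit every value.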
